A study of Mus musculus with 2 samples.

Results

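The nuclei described here form epend.2, 1 of the 16 clusters that the authors deposited for brainstem nuclei of 1 WT and 1 HET mouse. Members were taken by the deposited cluster name alone. They number 114 of 18281 nuclei. Of these, 6 were among the 9022 nuclei of the HET library (0.0665%, exact Clopper-Pearson interval 0.0244 to 0.145%), and all others were among the 9259 nuclei of the WT library (1.17%, 0.958 to 1.41%). Both mice were females at postnatal day 41 on a C57Bl6 background, and the HET carried the *Scn1a* A1783V knock-in on 1 allele in all tissues, since it was bred from a floxed *Scn1a* male and a Sox2-Cre female, while the WT was a littermate control with both copies intact. Nuclei came from flash-frozen brainstem and were profiled with 10x Chromium 3′ v3.1 chemistry, in which a unique molecular identifier (UMI) marks each captured transcript. With 1 library per genotype there was no replicate, no test between genotypes was possible, and WT and HET members are not compared. The libraries shared 23 cell barcodes, none of them of a member. The cluster was drawn from these same counts, so its differences from other nuclei are given as values with no test.

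The choroid plexus is a secretory epithelium that lines parts of the brain ventricles, the fourth ventricle of the hindbrain among them. Its cells make cerebrospinal fluid by moving ions and water from blood to ventricle, carry folate, thyroid hormone and other nutrients across, and secrete carrier proteins such as transthyretin. They share an origin with ependymal cells, the ciliated lining of the ventricles, but the cilia of these cell types differ in structure. The deposited name places epend.2 beside the ependymal cluster epend.1, and the question was whether the counts of its nuclei read as choroid plexus epithelium.

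Markers of choroid plexus epithelium were far higher in these nuclei than elsewhere. UMIs were summed over the WT members (396435 UMIs) and over the 9151 other WT nuclei (69904955 UMIs), and expressed per 1000000 UMIs (CPM). Each of 16 markers of choroid plexus epithelium was at least 4-fold higher in the members, against 9.14% of the 20374 genes with at least 20 UMIs over both sides. The median log2 ratio of the 16 markers was 7.10, with the medians of the genes' 95% counting limits at 6.57 and 7.79. Over all 20374 genes the median was 0.59 with genes without a UMI in the members set to a floor of 3 counts, and −0.17 with those genes placed lowest. Intervals here and below are exact Poisson or Clopper-Pearson intervals at 95%, and cover counting error only.

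The regulator *Otx2*, a homeobox factor needed to form the choroid plexus, led the 16 markers. It held 130 UMIs in the WT members, 328 CPM (274 to 389), against 0.315 CPM in the other WT nuclei. Of the 15 genes with the largest log2 ratio among those well detected in the members, 4 lay together at the *Otx2* locus on chromosome 14 (GRCm38, GENCODE vM21). They were *Otx2* itself (minus strand, 48657677 to 48673819), the long noncoding RNA *Otx2os1* on the opposite strand (48668708 to 48870683), *Gm49156*, which lies inside *Otx2os1* (48727414 to 48740809), and *Gm534* at its far end (48870258 to 48881869). *Otx2os1* reached 1937 CPM in the members against 4.62 CPM outside, a log2 ratio of 8.71. Among the other WT clusters it was highest in neuron.5, at 235 CPM (166 to 324) with a UMI in 38.1% of nuclei, and the members were 8.23-fold above that. *Gm534* had a ratio of 11.20 and *Gm49156* one of 10.00. All 5 tested genes that start within these 224193 bases were at least 4-fold higher, the other being *4933429O19Rik* (44 UMIs in the members). Of the 10 tested genes within 500 kb on either side 1 was, and it held 1 UMI in the members. *Exoc5*, the next protein-coding gene at higher coordinates, was at 121 CPM in the members and 93.6 CPM outside. The sources used here do not state whether counting used strand, so reads of overlapping genes on opposite strands cannot be told apart.

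RefSeq promoter windows of GRCm38.p6 (250 bases before and 50 after a start) were found for 19 of the 27 genes that are choroid markers or among the 15 largest. The letters TAATCC, the core that OTX factors read, were searched on both strands, and TAATCC or GGATTA stands in capitals below. A match occurred in 2 of the 27 windows of these genes and in 7.06% of all 32851 windows. The windows with a match belong to *Otx2* (chr14:48665060-48665359, minus strand, at 1 of its listed starts) and to *Ldc1* (chr4:130222246-130222545, minus strand), the gene with the largest ratio. The window of *Kl* (chr5:150952357-150952656, plus strand), a marker given with the cluster, is shown for comparison and holds none.
Otx2: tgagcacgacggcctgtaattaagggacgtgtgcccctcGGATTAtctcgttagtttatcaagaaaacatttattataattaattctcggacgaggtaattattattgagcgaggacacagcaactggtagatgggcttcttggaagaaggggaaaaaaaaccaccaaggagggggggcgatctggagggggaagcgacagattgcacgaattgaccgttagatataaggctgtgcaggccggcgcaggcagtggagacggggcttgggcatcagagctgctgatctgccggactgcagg
Ldc1: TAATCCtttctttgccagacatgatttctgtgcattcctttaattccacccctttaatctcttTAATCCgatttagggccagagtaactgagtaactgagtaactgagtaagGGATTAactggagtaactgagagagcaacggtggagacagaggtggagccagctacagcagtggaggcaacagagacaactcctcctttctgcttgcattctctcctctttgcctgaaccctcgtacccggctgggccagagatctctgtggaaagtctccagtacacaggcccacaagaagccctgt
Kl: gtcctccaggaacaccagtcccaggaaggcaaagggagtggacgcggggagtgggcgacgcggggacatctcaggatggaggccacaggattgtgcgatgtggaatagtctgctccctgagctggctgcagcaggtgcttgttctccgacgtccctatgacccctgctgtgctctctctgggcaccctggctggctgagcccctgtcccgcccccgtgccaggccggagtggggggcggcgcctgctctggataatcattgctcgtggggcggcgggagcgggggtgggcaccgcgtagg

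The 3 markers given with the cluster were high in it in both libraries. *Ttr*, which encodes the thyroid hormone carrier transthyretin, was at 16769.5 CPM in the WT members against 299.9 CPM in the other WT nuclei, and at 9407 CPM in the 6 HET members against 39.0 CPM in the other HET nuclei. Every member held *Ttr*, with 8 to 363 UMIs and a median of 45.5 in the WT members, and with 16, 48, 62, 29, 27 and 45 UMIs in the HET members. The marker found next most widely was *Enpp2*, in 99.1% of WT members.
*Folr1*, the folate receptor that loads folate into the cerebrospinal fluid, was at 358 CPM (302 to 422) against 1.16 CPM outside, and had a UMI in 73.1% of WT members. *Kl*, which encodes the anti-ageing protein klotho, was at 464 CPM (399 to 536) against 2.42 CPM, also with a UMI in 73.1% of members. In oligodendrocyte nuclei of the same library, which should lack both, 1.08% held a *Folr1* and 0.453% a *Kl* UMI, at a median depth of 2738 UMIs against 3138.5 in the members. With each nucleus thinned to 1000 UMIs, a depth that all of them reached, the shares were 31.4% against 0.401% for *Folr1* and 35.4% against 0.15% for *Kl*. *Ttr* differed, since 86.8% of the oligodendrocyte nuclei held it, or 53.2% after thinning.

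**Figure D1:**
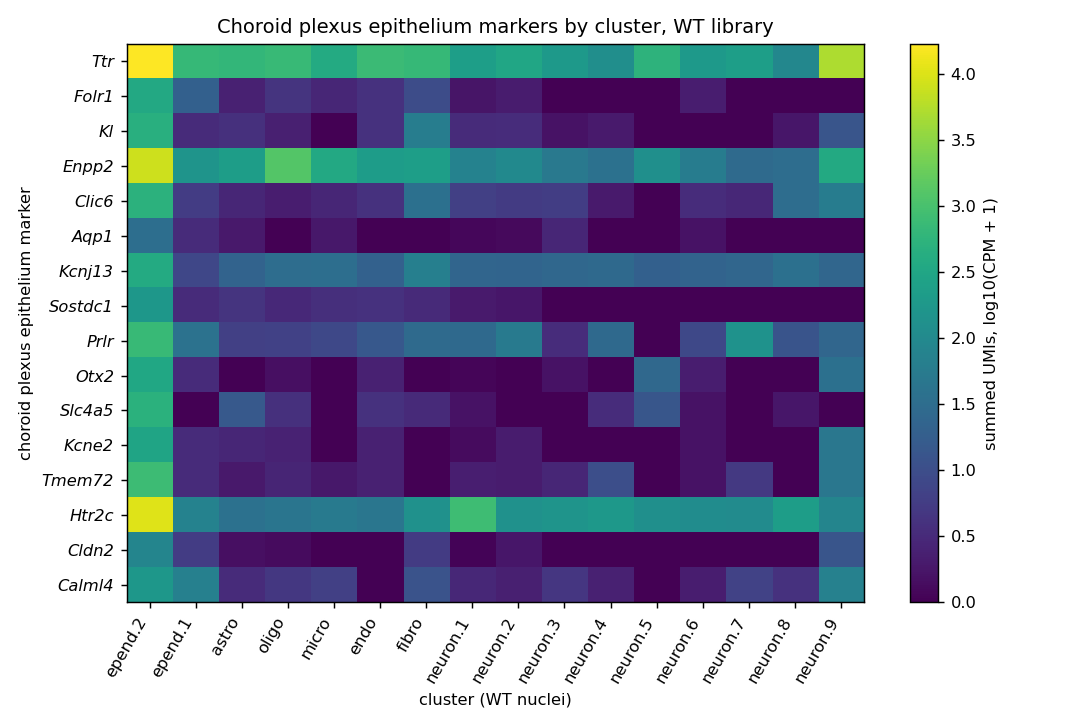
Summed level of the 16 choroid plexus epithelium markers (rows) in each of the 16 clusters (columns) of the WT library, coloured as log10 of CPM plus 1. The first column, epend.2, holds the highest level of every marker, and *Ttr* and *Enpp2* are also above 0 in all other clusters.

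Each of the 16 markers reached its highest WT level in epend.2. The margin over the next cluster was widest for *Sostdc1*, a secreted antagonist of BMP and Wnt signals, at 51.0-fold over astro. It was 35.7-fold for *Slc4a5*, a sodium bicarbonate cotransporter, also over astro, and 19.0-fold for *Folr1* over epend.1. It was narrowest for *Calml4*, at 2.46-fold, and for *Ttr*, at 3.30-fold, and in both the next cluster was neuron.9. A single nucleus held 183 of the 431 *Ttr* UMIs of WT neuron.9. *Htr2c*, the serotonin receptor whose RNA abounds in choroid plexus, was at 10279 CPM in the members and at 826 CPM in neuron.1, the next cluster. *Enpp2*, which encodes the lysophospholipid enzyme autotaxin, was at 8105 CPM, and at 1257 CPM in oligodendrocytes, which also make it. *Tmem72* was at 779 CPM against 1.54 CPM outside (log2 ratio 8.98), *Kcne2* at 293 CPM against 0.587 (8.96) and *Slc4a5* at 507 CPM against 1.24 (8.67). The water channel *Aqp1*, a classical choroid marker, was thinly covered, with 13 UMIs in all members (32.8 CPM, 17.5 to 56.1). *Cldn2*, the claudin of leaky epithelia, had 33 UMIs (83.2 CPM). *Clic6*, a chloride channel protein, was at 527 CPM against 5.18, and *Sostdc1* at 169 CPM against 1.14. *Prlr*, the prolactin receptor, was at 689 CPM against 24.6, *Kcnj13*, an inward rectifier, at 378 CPM against 23.8, and *Calml4* at 174 CPM against 2.72.

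A WT member held a UMI of 11 of the 16 markers in the median, with a range of 5 to 15. Other WT nuclei held 2 in the median, and 1 of the 9151 reached 10, against 77 WT members. The 16 markers took 3.84% of a WT member's UMIs in the median, from 1.52% to 12.3%, and 0.108% of another WT nucleus. Without *Ttr* the WT members' median was 2.25%, from 0.556% to 4.59%, and the highest nucleus outside was at 0.725% among WT nuclei and at 1.08% among HET nuclei, so that the ranges then overlapped. With *Ttr* counted, 1 nucleus outside the cluster, over both libraries, reached the 10th percentile of the WT members (2.55%). It belonged to neuron.9 of the WT library and had 3889 UMIs, a marker share of 5.35%, of which 183 UMIs were *Ttr*, and a share of 0.675% without *Ttr*. It held 9 of the 16 markers, within the range of the WT members, and a deposited reference label called it epithelial. A nucleus of WT neuron.1 reached the lowest member, with 1.54% and 3 of the markers. The member just inside was at 1.52%, so the ranges overlapped by these values.

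**Figure D2:**
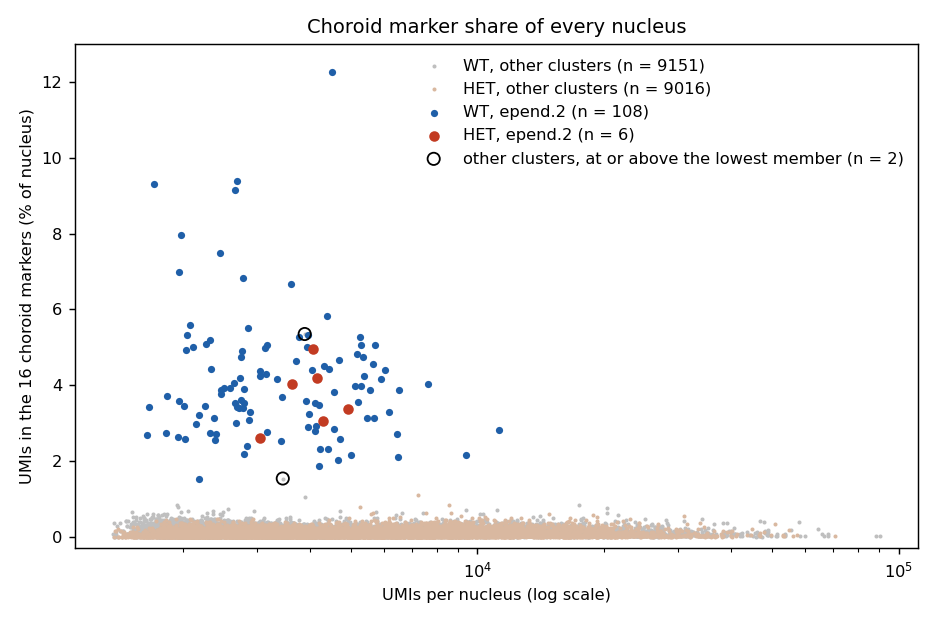
Share of each nucleus' UMIs in the 16 choroid markers (percent, vertical axis) against its depth (UMIs, log scale), 1 point per nucleus. The WT members lie between 1.52 and 12.3% and the 6 HET members between 2.60 and 4.96%, while all but the 2 ringed nuclei of the other clusters lie under the lowest member, with *Ttr* counted.

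The 6 HET members, set against the 9016 other nuclei of their own library, had UMIs of all 16 markers, each at least 4-fold higher than outside. They held 24131 UMIs in all, so a scarce gene can pass 4-fold on 1 UMI. *Cldn2* had 1 UMI, *Aqp1* and *Calml4* 2 each and *Kcne2* 4. The share of all genes that passed 4-fold in these nuclei is not given here, so the count of markers cannot be weighed against it. Their marker shares were 2.60, 4.04, 4.96, 4.20, 3.05 and 3.36%, against a median of 0.0687% outside. *Htr2c* held 348 UMIs in these 6 nuclei (14421 CPM), *Enpp2* 199 and *Prlr* 35. *Folr1* held 7 UMIs in 4 of the 6, and *Kl* 12 UMIs in 4 of the 6. The single members held 8 to 14 of the 16 markers.

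Cluster membership did not hang on the resolution of the authors' clustering. At resolutions 0.1, 0.5, 0.8, 1 and 1.5 of the final clustering, which gave 16 to 44 clusters, 1 cluster held all 114 members and no other nucleus. These are settings of the same clustering and not separate support, and resolution 0.1 gave as many clusters as there are deposited names. In the deposited clustering of the RNA assay, 1 cluster held 113 of the 114 and no other nucleus. Of the deposited reference labels, the broad one called 99 WT and all 6 HET members epithelial cells, 5 WT members neurons and 4 astrocytes. The other called 100 WT and 3 HET members ependymal. The 9 WT members that the broad label did not call epithelial had a median choroid marker share of 2.80%, from 1.52 to 9.30%, against 3.87%, from 1.88 to 12.3%, in those that it did. Neither label named choroid plexus for any member, but whether their references hold such a class is not given in the sources used here.

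**Figure D3:**
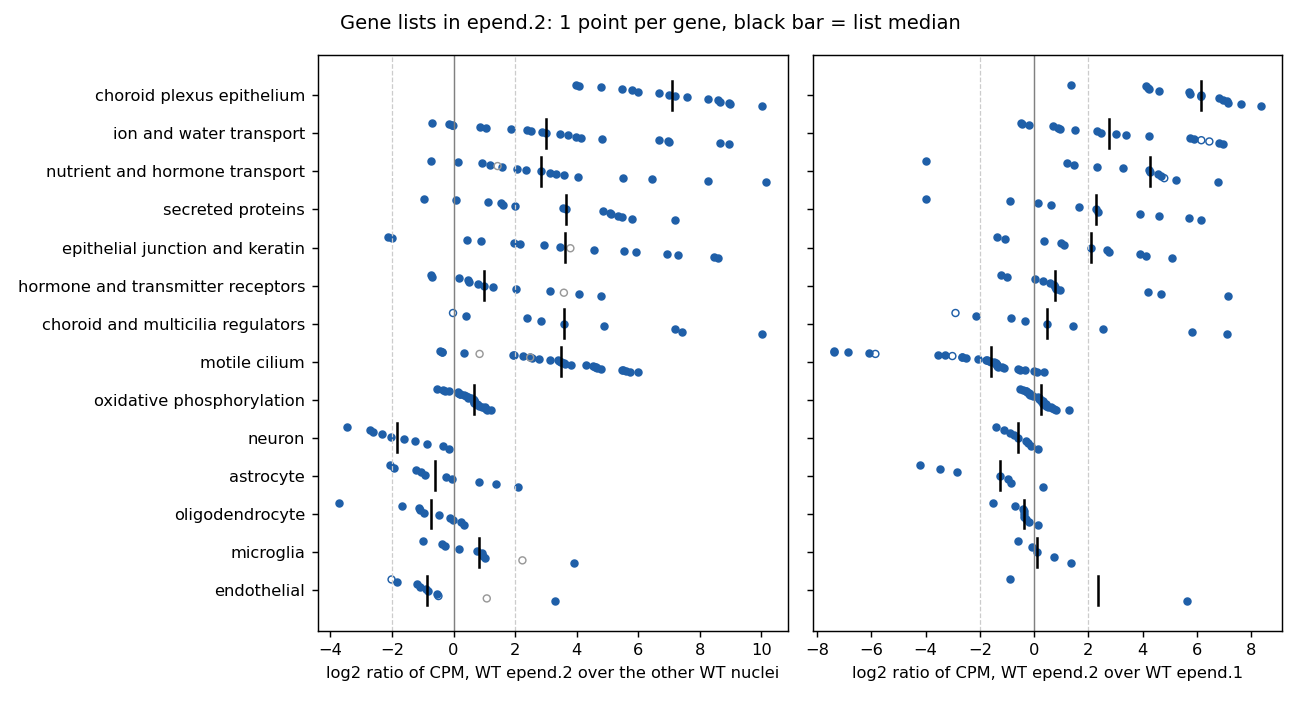
Log2 ratio of CPM of each gene (points) by list, WT members over the other WT nuclei (left) and over WT epend.1 (right), with the list median as a black bar and dashed lines at 4-fold. Open blue points are bounds for genes without a UMI on 1 side, open grey points are genes whose bound settles no direction, and the choroid markers, transporters and secreted proteins lie mostly to the right, with the neuron list to the left on the first panel.

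Transport genes are the machinery of cerebrospinal fluid secretion. Of 21 genes of ion and water transport, 14 were at least 4-fold higher in the members than in the other WT nuclei, 0 were lower and 7 were neither, with a median log2 ratio of 3.02. The list shares *Aqp1*, *Clic6*, *Kcne2*, *Kcnj13* and *Slc4a5* with the markers. *Stk39*, the SPAK kinase that sets the activity of cation chloride cotransporters, was at 3221 CPM (3047 to 3403) against 184, with a UMI in 99.1% of members. *Slc4a10*, a sodium-driven bicarbonate transporter of choroid epithelium, was at 2482 CPM against 306, and *Car12*, a carbonic anhydrase of the cell surface, at 623 CPM against 4.98. *Slc12a2*, the NKCC1 cotransporter of the apical membrane, was at 540 CPM against 104. The Na,K-ATPase beta subunit genes differed less, with log2 ratios of 0.86 for *Atp1b1* and −0.14 for *Atp1b3*. *Kcnq1*, which partners *Kcne2* in several epithelia, had 0 UMIs in the WT members, where the floor of 3 counts is 7.57 CPM.

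Genes for nutrient and hormone transport were higher in 11 of 17 cases, with a median log2 ratio of 2.85, and 0 were lower. Summed over the list, the members held 3365 CPM and the other WT nuclei 275 CPM. The sum was also high in WT endo (2599 CPM) and WT fibro (1837 CPM), so it was not particular to epend.2. The monocarboxylate transporter *Slc16a8* was at 197 CPM against 0.172 (log2 ratio 10.16). *Slco1c1*, a thyroid hormone carrier, was at 277 CPM against 16.6. The sulfate transporter *Slc13a4* was at 260 CPM against 2.99, and *Slc23a2*, the vitamin C transporter SVCT2, at 694 CPM against 96.4. *Slc46a1*, the proton-coupled folate transporter, had 0 UMIs in the WT members. The floor of 3 counts, 7.57 CPM, settles no direction against 2.80 CPM outside. *Slc47a1* had 1 UMI and *Abcg2* a log2 ratio of 0.16, the 2 smallest ratios of this list among genes with a UMI in the members.

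Of 15 measured genes for secreted proteins, 10 were higher and 0 lower. Beside *Ttr*, *Enpp2* and *Sostdc1*, these included *Igfbp2*, an IGF-binding protein, at 212 CPM against 5.16, and *Ecrg4*, a secreted peptide precursor, at 308 CPM against 8.77. *Trf*, the iron carrier transferrin, was near the level outside (log2 ratio 0.09), and *Cp*, the copper protein ceruloplasmin, had 4 UMIs (log2 ratio −0.95, −2.83 to 0.41). Of 16 tested genes of epithelial junctions and keratins, 10 were higher and 2 lower. Summed over the list, the members held 1594 CPM and the other WT nuclei 876 CPM. The sum was higher still in WT endo (1926 CPM) and not far below in fibro (1406 CPM) and oligo (1296 CPM), so it was not particular to epend.2. *Krt18*, a keratin of simple epithelia, was at 106 CPM against 0.300, *Cldn2* at a log2 ratio of 8.60 and *Ezr*, which links microvilli to actin, at 6.94. The 2 lower genes were *Tjp1* (73.2 CPM against 324) and the neural cadherin gene *Cdh2* (63.1 CPM against 253). *Cdh1*, the cadherin of most epithelia, was listed at 0, and *Epcam* held 2 UMIs.

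Of 13 receptor genes, 4 were higher, with *Prlr* (log2 ratio 4.81), *Htr2c* (4.09) and the leptin receptor *Lepr* (3.14) in front and the endothelin receptor *Ednrb* at 2.02 on 12 UMIs. *Thra*, a thyroid hormone receptor, and *Nr3c2*, the mineralocorticoid receptor, had the smallest ratios, −0.74 and −0.71. Of 9 tested regulators, 7 were higher. Beside *Otx2*, the roof plate factors *Lmx1a* and *Msx1* stood out, at 401 CPM against 2.70 and at 177 CPM against 1.03. *Gmnc*, which starts the program of multiciliated cells, was not in a list but ranked among the 15 largest ratios. It held 733 UMIs in 92.6% of the WT members, 1849 CPM against 3.25 outside and 25.9 in epend.1. *Myb*, which acts in the same program while cells amplify their centrioles, had 0 UMIs in the WT members.

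The other genes of the 15 largest ratios were *Ldc1* (11.43), *Defb9* (10.92), a defensin gene, *4930402D18Rik* (10.87), *Gm13110* (9.46), *F5*, which encodes coagulation factor V (8.68), and *Gm29538* (8.41), with *Slc16a8*, *Tmem72*, *Kcne2* and *Slc4a5* given above. *Ldc1* held 78 UMIs in the WT members and 5 in all other WT nuclei. GENCODE vM21 classes 8 of the 15 as protein coding, and the noncoding ones are named here without a role. The 5 genes with the smallest ratios were *Vwc2l* (−5.71), *Gm48091* (−5.65), *A330015K06Rik* (−5.55), *Epha6* (−5.26) and *Zfp804b* (−5.26), and in the members they held 1, 1, 2, 7 and 6 UMIs. At least 4-fold lower were 1233 genes in all, 6.05% of those tested. A few genes took much of the RNA, with *Trpm3* at 2.23% of the members' UMIs against 0.0798% outside, *Ttr* at 1.68%, *Htr2c* at 1.03% and *Enpp2* at 0.810%. *Trpm3* was not particular to the members, since their 22334 CPM was 1.55-fold the level in WT fibro (14403 CPM), and WT astro was at 7400 CPM.

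Set against the 129 WT nuclei of epend.1 (425031 UMIs), the members kept the choroid markers and had fewer transcripts of motile cilium genes. Of 15 markers with at least 20 UMIs over both clusters, 14 were at least 4-fold higher than in epend.1, against 5.78% of 7959 genes, with a median log2 ratio of 6.17. *Calml4* was the exception, at 2.55-fold. *Htr2c* was at 72.9 CPM in epend.1 and *Enpp2* at 153. At least 4-fold lower than in epend.1 were 9.85% of genes. Of the transport genes tested there, 11 of 18 for ions and water and 9 of 12 for nutrients and hormones were higher, as were 6 of 11 for secreted proteins, 6 of 11 for junctions and keratins, 3 of 12 receptors and 3 of 9 regulators. Of the 460 genes higher than in epend.1, 71.1% were also higher than in the other WT nuclei, and these were 17.6% of the 1862 genes higher there. The clusters share a library and tissue, and epend.1 was itself mixed: 31 of its 129 WT nuclei held no UMI of 31 motile cilium genes, against 1 of the WT members, and both reference labels called 59 of the 129 epithelial or ependymal. Against those 59 the motile cilium median given next was −2.28.

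Motile cilia are built by ependymal cells from dynein arms, radial spokes and a central pair of microtubules. Against all other WT nuclei, 23 of the 31 motile cilium genes were at least 4-fold higher in epend.2, 0 lower and 8 neither, with a median log2 ratio of 3.48. Against epend.1, 0 were higher, 12 were lower and 19 were neither, with a median of −1.60 (limits −2.34 to −1.10). Summed over the list, the members held 5148 CPM, the epend.1 nuclei 16279 CPM and all other WT nuclei 320.4 CPM. The sum of the members thus lay between the other 2, and single genes differed widely.
Some were within 2-fold of epend.1, on either side, with all 129 of its WT nuclei counted, also the 31 without a UMI of the list. Values of single genes against the 59 nuclei that both labels called epithelial or ependymal are not given here. *Lrriq1* was at 734 CPM against 576 in epend.1 (log2 ratio 0.35, 0.10 to 0.60), *Pifo*, which acts at the cilium base, at 227 against 209 (0.12, −0.32 to 0.56), and *Ccdc39*, a ruler of axoneme repeats, at 212 against 214 (−0.01, −0.46 to 0.43). *Spag16* was at 1037 CPM against 1572 (−0.60). *Foxj1*, the master factor of motile cilia, was at 55.5 CPM against 70.6 (−0.35, with an interval that holds 0), and *Rfx3*, another ciliogenic factor, at 959 against 692.
Others were almost missing. *Dnah12*, an axonemal dynein gene, had 5 UMIs in the members and 894 in epend.1, or 12.6 CPM against 2103. *Spag17*, a protein of the central pair, had 2 UMIs against 356 (log2 ratio −7.38, −10.43 to −5.51), *Ccdc153* 1 against 125 (−6.87, −12.18 to −4.36) and *Tmem212* 5 against 365. *Dnah5*, a heavy chain of the outer dynein arm, had 0 UMIs against 186, or 57.8-fold lower with the 0 set to the floor of 3 counts. *Fam183b* had 0 UMIs against 26. *Hydin*, also of the central pair, was at 68.1 CPM against 668. These genes were chosen after their values were seen, except the 2 largest and 2 smallest ratios to the other WT nuclei, which were *Spag16*, *Dnah6*, *Spag17* and *Dnah12*.

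**Figure D4:**
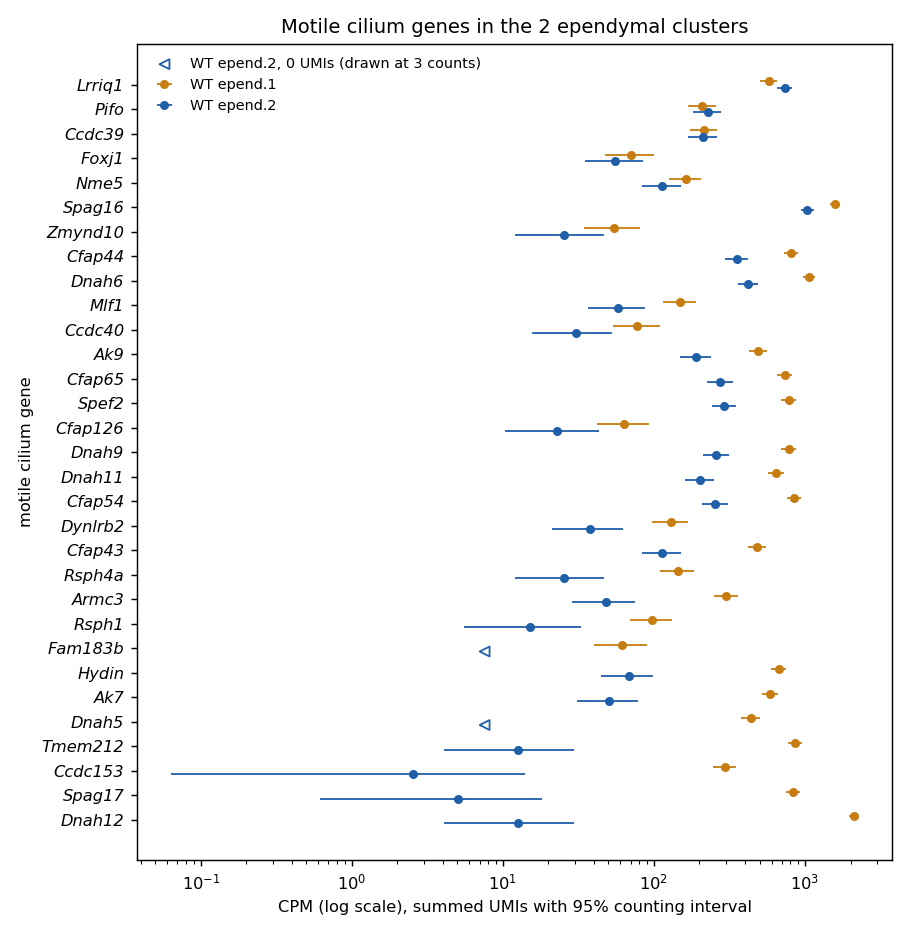
Level of the 31 motile cilium genes (CPM, log scale) in WT epend.2 (blue) and WT epend.1 (orange), with 95% counting intervals, ordered by their ratio. The clusters meet at the top, for *Lrriq1*, *Pifo* and *Ccdc39*, and part by over 50-fold at the bottom, for *Dnah5*, *Tmem212*, *Ccdc153*, *Spag17* and *Dnah12*.

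Other genes separated epend.2 from epend.1 in the opposite direction to the choroid markers. *Cp* was at 10.1 CPM against 160 and *Lrp2*, the endocytic receptor megalin, at 2 UMIs against 34, and these were the genes of the secreted and transport lists that were at least 4-fold lower than in epend.1. Of the transcription factors, *Rfx4* (11 UMIs against 52) and *Myb* (0 against 24) were lower. Across 14544 genes with at least 200 UMIs in the WT library, log2(CPM + 10) of epend.2 correlated most with fibro (Pearson r = 0.74), epend.1 (0.73) and astro (0.73), and least with neuron.9 (0.47). After each gene was centred on its mean over clusters, the order was epend.1 (0.22), fibro (0.21), endo (0.19) and astro (0.17), so the nearest cluster depended on the centring. These are correlations over genes, which are not replicates, and the clusters share 1 library.

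The marker lists of neurons, astrocytes, oligodendrocytes, border macrophages and mural cells summed to less than in the rest of the library. Those of endothelial cells (305 CPM against 207), stromal fibroblasts (63.1 against 28.8) and microglia summed to more. Of 10 neuron markers, 5 were at least 4-fold lower and 0 higher, with *Rbfox3* at 17.7 CPM against 194 and *Meg3* at 1544 CPM against 10156, while *Nefl* and *Slc32a1* were near the level outside (−0.15 and −0.34). *Meg3*, an RNA that abounds in neurons, had a UMI in 94.4% of WT members and in 92.6% of oligodendrocyte nuclei, or 69.2% and 63.2% after thinning. The 10 oligodendrocyte genes summed to 1483 CPM in the members, 1715 CPM in epend.1 and 15890.5 CPM in oligodendrocytes, with *Cnp* (0.35) and *Cldn11* (0.23) the largest and *St18* (−3.72) and *Ermn* (−1.66) the smallest ratios. Of 10 astrocyte genes, *Aldh1l1* (7 UMIs, 2.11) was higher and *Gpc5* (−2.05) lower, with *Slc1a3* at 3 UMIs and *Gfap* at 14 (1.38). Of 10 endothelial genes, *Slco1a4* (93 UMIs, 3.28), an organic anion transporter gene, was higher and *Flt1* (0 UMIs) lower, while *Cdh5* and *Abcb1a* were also listed at 0 and *Pecam1* had 1 UMI. Of the border macrophage genes 5 of 7, of the mural genes 3 of 6 and of the stromal fibroblast genes 2 of 7 were listed at 0, and these lists summed to 3, 3 and 25 UMIs. Past 4-fold in them were *Mrc1* (1 UMI, higher) and *Rgs5* and *Pdgfrb* (1 UMI each, lower). In the stromal list *Pdgfra* was higher (12 UMIs, 2.28), but at −0.12 when each other cluster had equal weight, and *Col1a2* had 1 UMI.

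*Cx3cr1*, the fractalkine receptor that serves as a microglia marker, went against its list. It held 104 UMIs in 54.6% of the WT members, 262 CPM (214 to 318), the highest level of any WT cluster. WT micro was at 177 CPM and epend.1 at 101 CPM. But WT micro did not hold microglial RNA alone, since the neuron list summed to 9509 CPM there, against 2260 CPM in the members. Of its 174 nuclei, 16 held no UMI of the microglia list. Whether the members exceed microglia in *Cx3cr1* was not tested. Thinned to 1000 UMIs, 22.3% of members and 2.04% of oligodendrocyte nuclei held *Cx3cr1*, and the share in WT micro was close to that of the members. Unthinned, 2 of the 6 HET members held it. The 10 microglia genes summed to 492 CPM in the members, of which *Cx3cr1* gave 262, against 234 CPM in the other WT nuclei. None of the other 9 was at least 4-fold higher. Among them *Tmem119* was at 0, *Csf1r* at 2, *C1qb* at 5 and *Selplg* at 4 UMIs, and *P2ry12* at 53.0 CPM against 106 outside. In GENCODE vM21 the *Cx3cr1* model on chromosome 9 (minus strand, 119901616 to 120069879, GRCm38) covers 168264 bases and overlaps other genes, among them *Ttc21a* and *Wdr48* on the opposite strand, with 27 and 10 UMIs in the WT members. The part of that model in the count was not tested.

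*Scn1a*, the sodium channel gene that carries the mutation, was low in the members, with 21 UMIs and 53.0 CPM (32.8 to 81.0) against 382 CPM in the other WT nuclei, the lowest level of the 16 WT clusters. The intervals of WT astro (61.5 CPM, 51.4 to 73.0) and endo (68.1 CPM, 49.8 to 90.8) overlapped that of the members, so this rank is not settled. A UMI was seen in 14.8% of members and 19.7% of oligodendrocyte nuclei, or 4.60% and 7.63% after thinning. The part of free RNA in these shares was not tested. *Scn2a*, *Scn3a* and *Scn8a* were also at least 4-fold lower, at 12, 5 and 12 UMIs. In epend.1 it was at 151 CPM.

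Genes of oxidative phosphorylation, of interest since choroid epithelium is rich in mitochondria, differed little. None of the 29 was 4-fold apart, 25 had a ratio above 0, and the median log2 ratio was 0.65 against the other WT nuclei and 0.24 against epend.1. Over all tested genes the median against the other WT nuclei was 0.59 with the floor and −0.17 with genes without a UMI in the members placed lowest. Against epend.1 it was 0.06. The share of all genes above 0 is not given here, so the 25 cannot be weighed against it. *Ndufb9* (1.22) and *Cox7c* (1.09) were the largest and *Ndufv1* (−0.55) and *Ndufs1* (−0.34) the smallest. Genes that mark position along the neural axis were too thinly covered to place the epithelium. Of 11 Hox genes of the hindbrain, the members held 26 UMIs in all (65.6 CPM against 153 outside), from 0 to 6 each, with *Hoxb4* at 6 and *Hoxb5* and *Hoxd3* at least 4-fold lower on 1 and 2 UMIs. Of the forebrain genes *Emx1* held 3 UMIs and *Emx2*, *Six3* and *Lhx2* none.

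*Ttr* was found far beyond the cluster, at a higher level in the library with more members. In the WT library, with all but 6 of the 114 members, 75.9% of all *Ttr* UMIs lay outside epend.2, 86.3% of the other nuclei held 1 or more, and every other cluster was between 90.7 and 5084 CPM. In the HET library, with 6 members, 91.9% lay outside, but 23.3% of the other nuclei held a UMI and their level was 39.0 CPM. *Ttr* was also set against 7 markers that are scarce elsewhere (*Folr1*, *Kl*, *Tmem72*, *Otx2*, *Slc4a5*, *Kcne2* and *Sostdc1*). Taking scarce genes raises this ratio outside the members by itself, so a higher value there cannot be read as a result. There were 5.79 *Ttr* UMIs per UMI of these genes in the WT members (5.43 to 6.17) and 35.7 in the other WT nuclei (32.8 to 38.8), and from 9.06 in fibro to 69.3 in micro among the 15 other clusters. In the HET library the ratio was 3.91 in the members (2.92 to 5.32) and 6.64 outside, but single clusters lay on both sides of the members, among them epend.1 at 1.43, fibro at 2.18 and astro at 3.10 below and oligo at 16.6 above. The cluster with the highest *Ttr* after epend.2, neuron.9, had a median of 6.64% mitochondrial and 11.1% ribosomal protein UMIs in the WT library, against 0.516% and 0.932% in the members. Of its 431 *Ttr* UMIs there, 183 lay in 1 of its 35 nuclei, the one labelled epithelial. The part of free RNA in these values was not tested.

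**Figure D5:**
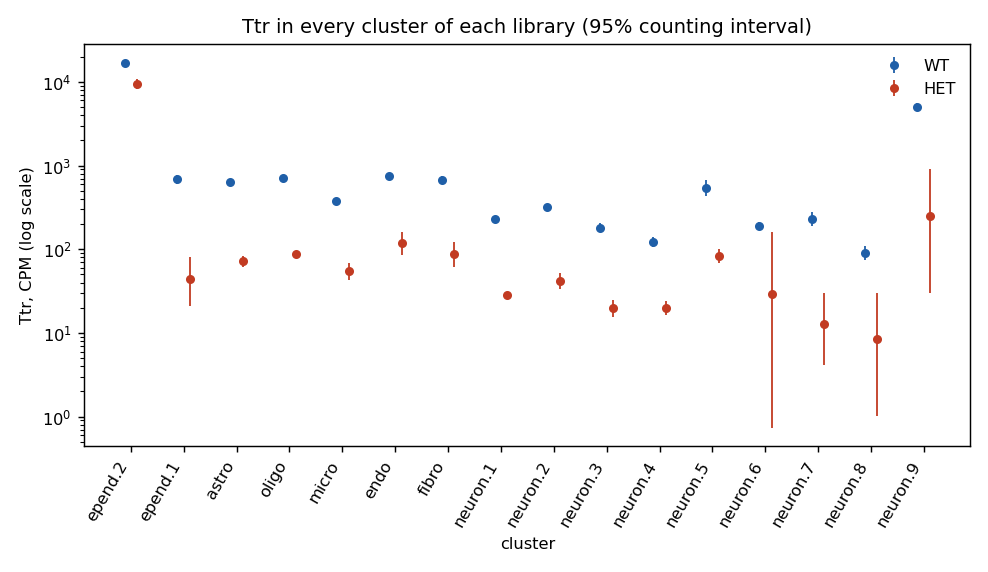
*Ttr* level (CPM, log scale) in each cluster of the WT (blue) and HET (red) library, summed over nuclei, with 95% counting intervals. The epend.2 points, 16769.5 and 9407 CPM, are the highest of each library, and all other WT clusters lie above the HET points of the same name.

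WT members had a median of 3138.5 UMIs (1640 to 11232) and 1833 genes, and HET members 4120 UMIs (3042 to 4915). Their deposited doublet score was high, with a median of 0.297 in WT and 0.328 in HET members against 0.169 and 0.116 in all nuclei of these libraries, and over both libraries epend.2 had the rank 3 of the 16 clusters by its median. The authors had removed the nuclei they called doublets. The lowest score of a WT member was 0.178. The part of doublets in these values was not tested. Without the 5% of WT members with the highest score the median ratio of the choroid markers was 7.13 and that of the motile cilium genes 3.44. The members left after this cut still scored high, so these values cannot decide on doublets.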

How the data were processed

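The authors deposited UMI counts per gene and nucleus, without normalization, from Cell Ranger on its default mm10 reference, filtered in Seurat 4.1. The deposited percent values (mitochondrial, ribosomal protein and hemoglobin UMIs), the doublet score, the cluster names and the reference labels were used as given. The versions of Cell Ranger and of the doublet caller are not given in the sources used here, nor whether intronic reads or strand were used. UMIs were summed per cluster and library and set against each other as CPM, with a floor of 3 counts for a side without UMIs, for genes with at least 20 UMIs. Differences of at least 4-fold were counted, with no test. A thinned share is the share of nuclei expected to hold the gene at a fixed draw of 1000 UMIs per nucleus. The 20 gene lists were written by hand, and the members and lists were chosen with earlier results of these data known. Genes named are the 16 choroid markers, the 15 largest and 5 smallest ratios, the 2 largest and 2 smallest of each list and *Scn1a*; others were chosen after their values were seen. Some genes named by this rule are not reported here. Depth was 70301390 UMIs in 9259 WT and 66176778 UMIs in 9022 HET nuclei, over 25556 genes. The scripts were tested on simulated data. Tables were made with pandas 2.3.3 and numpy 2.4.6 in Python 3.11.15, intervals with scipy 1.17.1 and plots with matplotlib 3.10.9. Coordinates are those of GENCODE vM21, promoters those of RefSeq.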

Additional observations from a re-analysis of the deposited data

How the results depend on the processing

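The choroid marker medians and the motile cilium medians kept their sign under every alternative run. Counts of genes depended on the minimum count. Higher than in the other WT nuclei were 813 genes with at least 200 UMIs and also 813 by the nearer bound of the counting interval, in place of 1862, and lower by that bound were 409, in place of 1233. Against epend.1, in place of 460 higher and 784 lower genes, there were 65 and 93 with at least 200 UMIs, 884 and 1341 with no minimum, and 213 and 332 by the nearer bound. With equal weight for each other cluster, the median ratio to the other WT nuclei was 6.08 for choroid markers and 1.76 for motile cilium genes, and that of *Pdgfra* turned to −0.12. Choroid markers with at least 200 UMIs gave 6.001, and the mean of the motile cilium genes against epend.1 was −2.36. Without *Ttr* the choroid share was 2.25% and 0 nuclei outside reached the 10th percentile. With *Ttr*, 2 reached the lowest member. Scaling to the median of genes with at least 200 UMIs moved ratios by 0.14 against the other WT nuclei. Of 1003 values of named genes, 907 stayed within their counting interval, 144 differed by over 1.5-fold and 32, in 17 ratios, changed sign. Among these, with equal weight for each other cluster, the ratios to the other WT nuclei were −1.71 for *Abcg2*, −0.63 for *Cnp*, −0.39 for *Cldn11*, −0.45 for *Rfx4* and −0.27 for *Trf*. Chosen after seeing the data, leaving out neuron.9, or members or epend.1 nuclei whose labels name other types, left each of these counts within 1.5 times and each median within its limits (motile cilium genes against epend.1, −2.28 with the labelled epend.1 nuclei). No paired analysis was possible because each group holds 1 sample. Counts of under 10 UMIs in the members, as of *Hox* genes, limit what depth can show.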
